A study of Sus scrofa with 64 samples.

Results

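The enzymes that handle drugs, alcohol and related small molecules were followed across 16 tissues of young pigs. Members were taken by name: every probe whose platform symbol begins with CYP and a number (apart from CYP17A1 and CYP11A1), UGT, GST of the A, M, P, T, O, K or Z classes, SULT, FMO, ADH, ALDH or EPHX. The rule took 86 of 23935 probes. Of these, 79 carried 1 symbol and stood for 52 genes, 17 of them with more than 1 probe, and 7 carried several symbols and were counted apart. The brightest probe of a gene (highest mean over all arrays) stands for it below, and its other probes are mentioned where they differed.

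Cytochromes P450 (CYP) and flavin monooxygenases (FMO) put oxygen onto lipid-soluble molecules, alcohol and aldehyde dehydrogenases (ADH, ALDH) oxidise alcohols and then aldehydes, and epoxide hydrolases (EPHX) open reactive epoxides. The products, or the drug itself, are then joined to glucuronic acid by UGT enzymes, to sulphate by sulphotransferases (SULT) or to glutathione by glutathione transferases (GST), which makes them easier to excrete. The liver cell is the classical site of these reactions, and the lining of the small intestine is the first tissue that a swallowed compound meets.

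RNA from each tissue of 4 pigs was measured on 1 porcine oligonucleotide array per tissue and pig, 64 arrays in all: a Large White male (38.8 kg) and female (36.2 kg), both 87 days old, and an Iberian female (32.8 kg) and male (25.4 kg), both 89 days old. The pigs had been housed together on the same diets, and no drug was a treatment under comparison. All 4 were killed with an intravenous overdose of a barbiturate, sodium thiobarbital, shortly before the tissues were taken, so the values are not those of drug-free animals. Each breed and each sex was represented by 2 animals, and breed went with weight, so the 2 cannot be told apart. Values are log2 signals after robust multi-array averaging (RMA), of which the median over the series was 5.47, and a difference of 1 log2 unit is a doubling. A tissue difference is the mean of a tissue minus the mean of the remaining tissues, fitted with limma over all probes, and was called at an adjusted p under 0.05 with a size of at least 1 log2 unit.

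The liver label was borne out by its markers: the list of 9 hepatocyte genes averaged 13.26 to 13.34 in the 4 livers. Outside liver, it reached 8.88 in the abdominal fat of the Large White female, 7.37 in the neurohypophysis of the Iberian male and 6.60 in the back fat of the Large White female, against 4.27 to 6.51 in the other 57 arrays. In that abdominal fat array, the liver P450 probes CYP2C33 and CYP2E1 stood at 6.88 and 6.09, their highest values outside liver. The number of members called higher in liver was 48 with or without those 3 arrays. The adrenal medulla arrays carried the adrenal cortex list (10.46 to 11.05, against 10.73 to 11.23 in cortex), so both parts of the gland were treated together. RNA was measured per tissue, and fewer cells of a type cannot be told apart from less RNA per cell.

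Liver stood apart from every other tissue. Of the 79 probes, 48 (60.8%) were higher in liver than in the other 15 tissues, beside 7.72% of all probes, and 36 of the 52 genes were called by their brightest probe. None was lower by the same rule (beside 8.26% of all probes), at an unadjusted p under 0.05 as well, although 5 probes had smaller negative differences with such a p. The median difference of the 79 probes was 2.04, against -0.05 for all probes. For 41 of the 79 probes (51.9%) liver had the highest tissue mean, as it did for 6.78% of all probes, and in 31 all 4 livers lay above the other 60 arrays, beside 2.88% of all probes. Of the 7 probes with several symbols, 6 were called higher in liver: those shared by CYP2C, CYP4A or CYP4F genes, but not the probe shared by the aromatase genes.

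**Figure D1:**
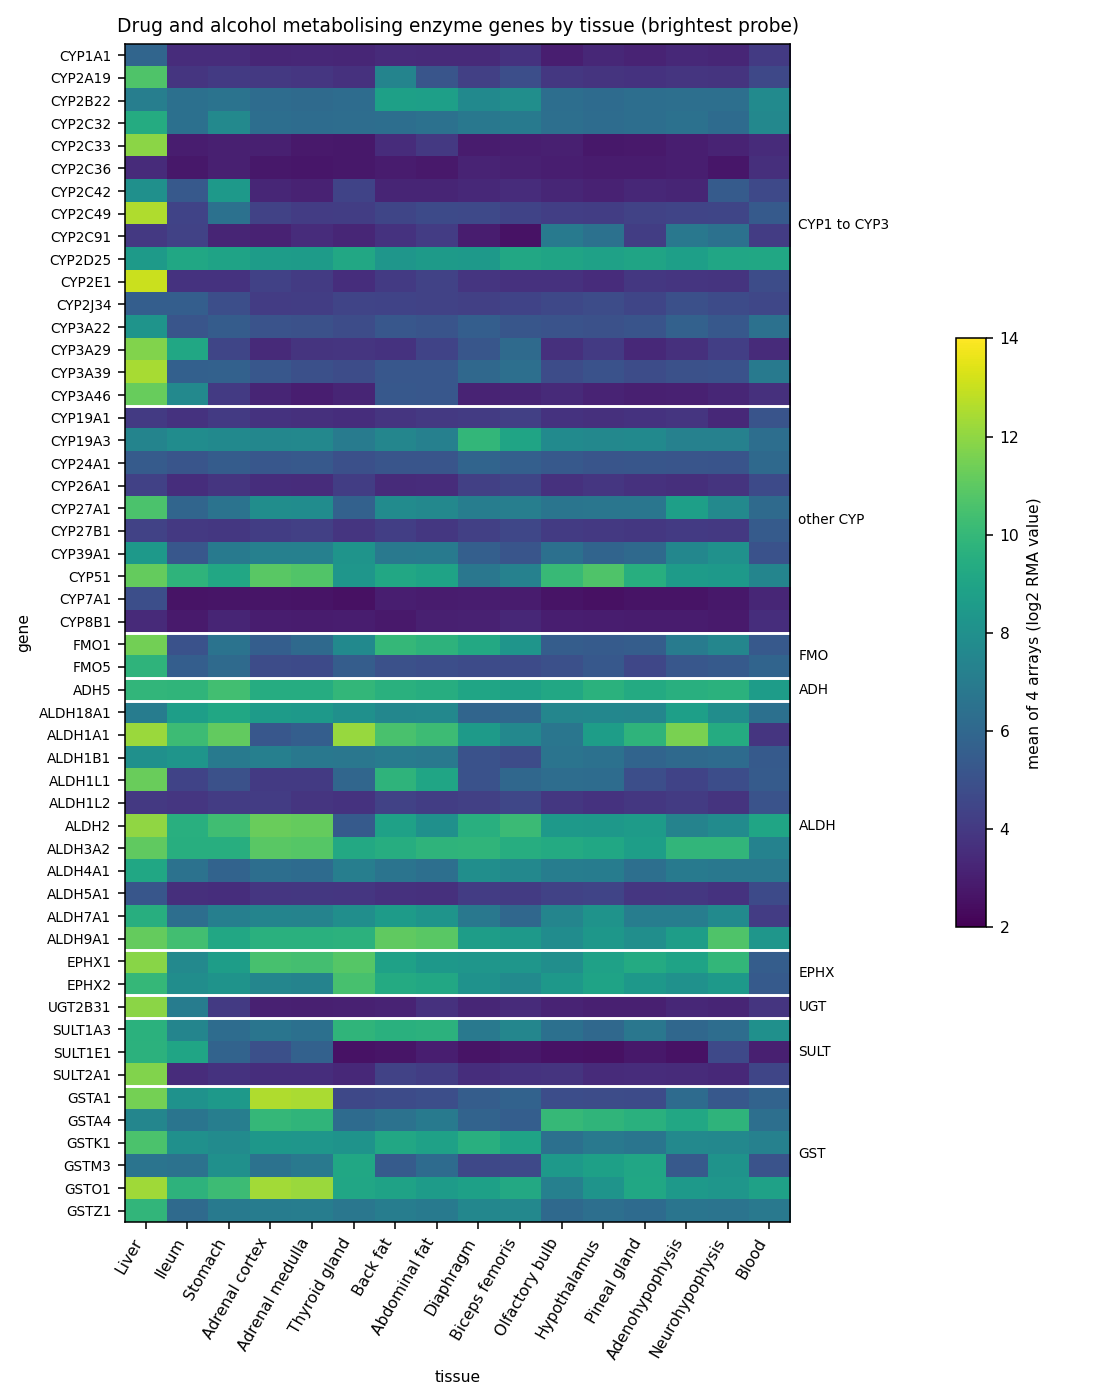
Mean log2 RMA value of the 4 arrays (colour) for the brightest probe of each of 52 genes (rows, in enzyme groups) in each of 16 tissues (columns). The liver column is the brightest for 30 genes, and ADH5 and CYP2D25 are bright along the whole row.

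Among the P450s of the CYP1 to CYP3 families, which do most drug oxidation, 14 of 21 probes (11 of 16 genes) were higher in liver, with a median difference of 3.23. CYP2E1, the P450 that oxidises ethanol and paracetamol, gave 13.06, 12.93, 13.26 and 12.91 in the livers of the Large White male, Large White female, Iberian female and Iberian male (the order used for liver values throughout). The other 60 arrays ranged between 3.28 and 6.09, with a median of 3.78. All 4 livers lay above every other array, and the liver mean exceeded that of the other tissues by 9.10 ± 0.25 log2 units (SE, adjusted p = 4e-36). Detection calls were not used, so against a probe this dim outside liver the difference is not an exact fold change, here and for the dim probes that follow.

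CYP2C33 and CYP2C49, porcine members of a family that oxidises many acidic drugs, showed the same gap. CYP2C33 gave 11.93, 11.89, 12.16 and 11.62 in liver, against 2.54 to 6.88 (median 2.93) elsewhere, a difference of 8.81 ± 0.28. CYP2C49 gave 12.82, 12.74, 11.69 and 13.04 in liver, and its next highest tissue was stomach, where the 4 animals spread from 4.75 to 7.97. Its liver difference was 7.97 ± 0.25. CYP2A19 averaged 10.68 ± 0.58 in liver (SD, n = 4) and 4.33 ± 0.99 in the other 60 arrays, a difference of 6.35 ± 0.19.

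The CYP3A genes encode the family that handles the widest range of drugs. CYP3A39 gave 11.83, 11.56, 13.11 and 13.24 in liver, against 4.48 to 7.06 elsewhere, and both of its probes were called (brighter probe, 7.04 ± 0.18). CYP3A29 was nearly level among the 4 livers at 11.66, 11.64, 11.80 and 11.78, with a difference of 7.27 ± 0.26. CYP3A46 gave 10.84, 10.14, 11.84 and 12.06 and differed by 7.36 ± 0.41. The porcine CYP3A and CYP2C genes are close paralogues, and a probe designed for one gene may also have bound RNA of another, which was not tested.

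Not every probe of these families was called higher in liver. The 2 probes of CYP2D25, a vitamin D 25-hydroxylase in the pig, did not share a pattern: the brighter one was between 8.32 and 9.19 on average in every tissue, and the dimmer one averaged 12.19 in liver and 3.87 elsewhere, a difference of 8.32 ± 0.13 (adjusted p = 1.2e-47). The correlation of their tissue means was -0.22 over 16 tissues. CYP2C91 was low in liver and belonged to the brain tissues described further on, and CYP2B22 was highest in fat.

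Outside the drug-oxidising families, 6 of 22 probes of the other P450s (4 of 10 genes) were higher in liver, with a median difference of 0.11. All 3 probes of CYP27A1, the mitochondrial sterol 27-hydroxylase of bile acid synthesis, passed, as did CYP51, CYP39A1 and CYP7A1. CYP51, which makes a cholesterol precursor, averaged 11.16 ± 0.17 in liver (SD, n = 4), with a difference of 2.10 ± 0.22, and was also high in the adrenal gland (1.89 ± 0.16). CYP8B1, the sterol 12-alpha hydroxylase, had the flattest row: 3.26, 3.53, 3.31 and 3.61 in liver and a median of 2.99 elsewhere, a difference of 0.39 ± 0.09 that did not reach the size limit. The aromatase probes CYP19A1 and CYP19A3 showed no liver call.

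Both FMO genes were liver genes in this set. FMO5 gave 10.12, 9.75, 9.75 and 9.67 in liver, against 4.21 to 6.52 elsewhere, and differed by 4.66 ± 0.14. FMO1, the isoform that in humans is expressed in adult kidney and fetal liver, gave 10.90, 10.71, 12.10 and 12.02 in the pig livers, and differed by 4.46 ± 0.30. Its row was broader, with the next highest values in fat and diaphragm.

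For alcohol itself the array held 1 ADH gene under the rule. ADH5, the class of alcohol dehydrogenase that also clears formaldehyde with glutathione, was nearly level: it averaged 9.88 ± 0.09 in liver (SD, n = 4), and the other 60 arrays ranged from 8.43 to 10.48 with a median of 9.51. Its liver difference of 0.41 ± 0.08 was under the size limit, and its highest tissue was stomach, where all 4 arrays lay above the other 60.

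Of the aldehyde dehydrogenases, 13 of 16 probes (9 of 11 genes) were higher in liver, with a median difference of 1.90. ALDH1L1, the folate enzyme 10-formyltetrahydrofolate dehydrogenase, gave 10.99, 10.84, 11.58 and 11.55 in liver and differed by 5.54 ± 0.17. Its dimmer probe did not follow it (correlation of tissue means 0.23 over 16 tissues) and was not called in liver. ALDH1A1, which oxidises retinal and acetaldehyde, gave 12.54, 11.85, 12.11 and 12.30 in liver and differed by 3.45 ± 0.28. ALDH2, the mitochondrial enzyme that removes most acetaldehyde after drinking, gave 12.15, 11.69, 12.08 and 12.12 in liver, above the other 60 arrays. ALDH1L2, the mitochondrial relative of ALDH1L1, gave 3.92, 4.02, 3.94 and 4.05 in liver and a difference of -0.13 ± 0.11 (adjusted p = 0.36). Its probe was dim in every tissue (tissue means 3.74 to 5.07), so the lack of a liver call says little about it. ALDH18A1, which makes a precursor of proline, was the other gene without a liver call.

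Both epoxide hydrolases were called. EPHX1, the microsomal enzyme that acts on drug epoxides, gave 12.33, 11.99, 11.56 and 11.50 in liver, above the other 60 arrays (5.18 to 11.46), and was 8.02-fold higher (adjusted p = 4e-21). EPHX2, the soluble enzyme that acts on fatty acid epoxides, gave 10.32, 10.16, 9.62 and 9.83 and differed by 1.75 ± 0.15.

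The conjugating enzymes split by family. UGT2B31 was the only UGT gene among the members, and both of its probes passed. The brighter one gave 12.14, 11.74, 11.85 and 11.83 in liver, against 2.77 to 7.42 (median 3.23) elsewhere, a difference of 8.31 ± 0.16 (adjusted p = 7.5e-43). All 3 sulphotransferases passed: SULT2A1, which sulphates bile acids and steroids, had an adjusted p of 1.7e-44, and SULT1E1, the estrogen sulphotransferase, differed by 5.89 ± 0.36 and SULT1A3 by 2.32 ± 0.20.

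SULT2A1 and SULT1E1 reached liver levels of 11.44 to 12.12 and of 9.60 to 9.90, and they differed in where else they were found. SULT2A1 stayed between 3.07 and 5.00 in the other 60 arrays, whereas SULT1E1 reached 9.95 in ileum.

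Of the glutathione transferases, 6 of 10 probes (4 of 6 genes) were higher in liver: GSTA1, GSTO1, GSTK1 and GSTZ1. GSTA1, the alpha class enzyme abundant in liver cells, gave 12.00, 11.09, 11.13 and 11.73 in liver and differed by 4.90 ± 0.17. GSTZ1, which also serves tyrosine breakdown, gave 10.19, 9.75, 9.82 and 9.85, all above the other 60 arrays (5.92 to 7.78), and differed by 3.12 ± 0.08. GSTA4 and GSTM3 had liver differences of -0.47 and -0.23, and were high elsewhere.

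**Figure D2:**
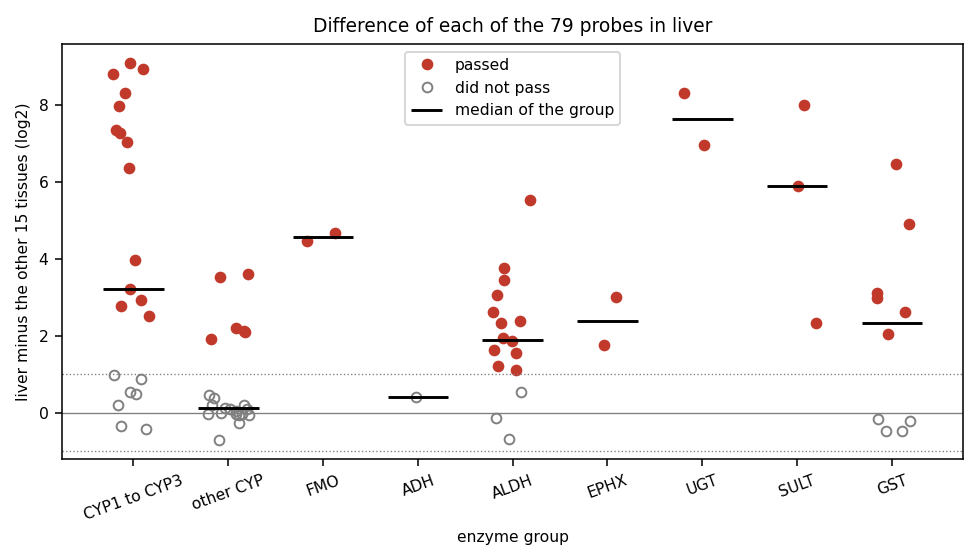
Difference between liver and the other 15 tissues (log2, vertical axis) for the 79 probes with 1 symbol, by enzyme group (horizontal axis); filled points passed the test and the size limit of 1 log2 unit (dotted lines), open points did not, and bars are group medians. The 48 filled points all lie above 0, and the group medians run from 0.11 (other CYP) to 7.64 (UGT).

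Lists of genes that work with these enzymes were read in the same fit. The counts of each list stand beside 7.72% of all probes higher and 8.26% lower in liver. Of the electron partners of the P450s, 4 of 7 probes were higher in liver and none lower: CYB5A, the cytochrome b5, by 2.41 ± 0.16, POR, the P450 reductase, by 1.42 ± 0.13, and both probes of FDX1, the mitochondrial ferredoxin (brighter probe, 1.34 ± 0.09). Of the receptors and liver transcription factors, 5 of 17 probes were higher, HNF4A by 4.06 ± 0.14. The dimmer probes of FOXA2 and of NR1I2, the receptor that senses drugs, differed by 5.22 ± 0.21 and 3.46 ± 0.13, and the brighter probes of these 2 genes were not called. No probe of the receptor AHR passed.

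Cofactor genes moved both ways, with 8 of 18 probes higher and 2 lower, beside 7.72% and 8.26% of all probes. GCLC, which limits glutathione synthesis, was higher by 3.14 ± 0.19 and UGP2, which makes UDP-glucose, by 2.23 ± 0.13. PAPSS1, a maker of the sulphate donor, was lower in liver by both of its probes (brighter probe, -2.20 ± 0.11), whereas PAPSS2 was higher by 1.87 ± 0.24. Of the transporters, 8 of 13 probes were higher, among them the bile acid importer SLC10A1 (6.55 ± 0.13), a probe of the bile salt pump ABCB11 (5.46 ± 0.13; its brighter probe differed by 0.66 and was not called) and the exporter ABCC2 (3.07 ± 0.13). Of drug enzymes outside the rule, 9 of 13 probes were higher, led by the carboxylesterase CES1 (6.37 ± 0.27), the monoamine oxidase MAOB (3.08 ± 0.21) and AKR1C1 (2.88 ± 0.12).

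Set against ileum alone, 44 of the 79 probes (55.7%) were higher in liver, beside 8.94% of all probes, and 1 (1.27%) was lower, beside 11.1%. The 5 largest differences were CYP2E1 (9.27 ± 0.34), CYP2C33 (8.94 ± 0.39), SULT2A1 (8.22 ± 0.20), CYP2C49 (8.15 ± 0.35) and CYP2A19 (6.85 ± 0.26), each between 2.84 and 4.50 in all 4 ileum arrays. The only member lower in liver than in ileum was ALDH18A1, which gave 8.22, 8.10, 5.53 and 6.28 in liver and 8.79, 8.77, 8.44 and 8.87 in ileum, a difference of -1.69 ± 0.28 (adjusted p = 1e-06). Its liver values fell apart by breed, as described further on.

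The ileum, sampled as epithelium, had its own smaller set. Against the other 15 tissues, 12 of the 79 probes (15.2%, 10 genes) were higher, beside 7.93% of all probes, and 8 (10.1%) were lower, beside 7.34%. SULT1E1 gave 8.68, 9.95, 7.99 and 9.52 in the ileum of the 4 pigs in the same order, against a median of 2.80 in the other arrays, and differed by 5.16 ± 0.36. CYP3A29, the P450 that was level among livers, gave 9.21, 8.81, 8.88 and 9.71 and differed by 4.53 ± 0.26. CYP3A46 gave 7.33, 6.34, 8.05 and 8.83 and differed by 3.54 ± 0.41.

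Liver was the only other tissue to reach these levels of the 2 CYP3A genes in every animal. UGT2B31 averaged 7.03 ± 0.35 in ileum (SD, n = 4), with a difference of 3.12 ± 0.16. ALDH1B1, a mitochondrial aldehyde dehydrogenase, was higher in ileum by 1.85 ± 0.19 and ALDH1A1 by 1.37 ± 0.28. The lowest differences in ileum were those of FMO1 (-2.38 ± 0.30), ALDH1L1 (-1.73 ± 0.17) and CYP39A1 (-1.52 ± 0.15). The leukocyte marker list (2 genes found) was also higher in ileum, at 8.47 to 8.69, than in liver, at 5.05 to 5.86. Its part in the ileum values was not tested.

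In stomach, taken as epithelium of the body, 10 probes (12.7%) were higher, beside 5.17% of all probes, and 4 (5.06%) lower, beside 4.33%. In all, 14 (17.7%) were called, beside 9.5%. CYP2C42 gave 8.23, 7.89, 9.45 and 8.16 in stomach and a median of 3.45 in the other 60 arrays, a difference of 4.39 ± 0.22 (adjusted p = 4.6e-23). Its liver values of 8.33, 8.26, 8.77 and 6.82 overlapped those of stomach. The dimmer CYP2C42 probe averaged 4.68 in stomach and 4.84 in liver, was highest in blood (4.99) and was not called in liver. ALDH1A1 was higher in stomach by 2.30 ± 0.28, SULT1E1 by 1.75 ± 0.36 and GSTA1 by 1.72 ± 0.17.

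Values in stomach varied among the 4 pigs. SULT1E1 gave 4.91 and 5.44 in the Large White stomachs and 7.04 and 5.97 in the Iberian stomachs. The Iberian female had the highest stomach value of CYP2C42 and ALDH1A1 and the lowest level of the gastric marker list (11.66, against 12.05 to 12.80 in the other 3), and a part of the sampling in these values was not tested.

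The adrenal gland, source of the steroid hormones, had high levels of several glutathione transferases. Here 10 probes (12.7%) were higher, beside 5.49% of all probes, and 11 (13.9%) lower, beside 4.37%. GSTA1 gave 12.76, 12.36, 12.21 and 12.91 in cortex and 12.75, 12.11, 12.44 and 12.56 in medulla. All 8 arrays lay above every other array, liver included (11.09 to 12.00), and the difference was 6.42 ± 0.12. The 3 GSTA1 probes disagreed on liver: 2 were high in adrenal gland and liver, and the dimmest averaged 9.22 in adrenal gland and 3.48 in liver.

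GSTO1, the omega class enzyme, averaged 12.25 ± 0.12 in adrenal gland (SD, n = 8) and differed by 3.17 ± 0.12. ALDH2 was higher by 2.39 ± 0.14 and GSTA4, which clears the lipid peroxidation product 4-hydroxynonenal, by 2.27 ± 0.10. The dimmer probe of GSTA4 did not follow it (correlation of tissue means -0.43 over 16 tissues). ALDH1A1 went the other way, with tissue means of 5.25 in cortex and 5.59 in medulla. The partner lists differed here from their counts in liver. Of the electron partner probes, 6 of 7 were higher in adrenal gland, beside 5.49% of all probes (FDX1 by 4.71 ± 0.06 and FDXR by 4.57 ± 0.09). PAPSS2 (4.27 ± 0.17) and the drug exporter ABCB1 (5.78 ± 0.16) were higher too. The steroid enzymes CYP11A1 and CYP17A1 that share the electron partners were left out of the rule.

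The thyroid gland had 7 probes (8.86%) higher, beside 6.59% of all probes, and 13 (16.5%) lower, beside 4.5%. ALDH1A1 gave 12.52, 12.08, 12.06 and 11.97, in the range of the 4 livers, and differed by 3.40 ± 0.28. SULT1A3, a phenol sulphotransferase, differed by 2.51 ± 0.20 and GSTM3, a mu class glutathione transferase, by 2.48 ± 0.21. EPHX2 gave 10.38, 10.71, 10.33 and 10.64 and lay above the other 60 arrays, a difference of 2.32 ± 0.15 (adjusted p = 1.7e-18). ALDH2, named here after its values were seen, was lowest in this gland: 4.90, 5.04, 6.02 and 5.61, a difference of -3.99 ± 0.19, below all other 60 arrays.

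**Figure D3:**
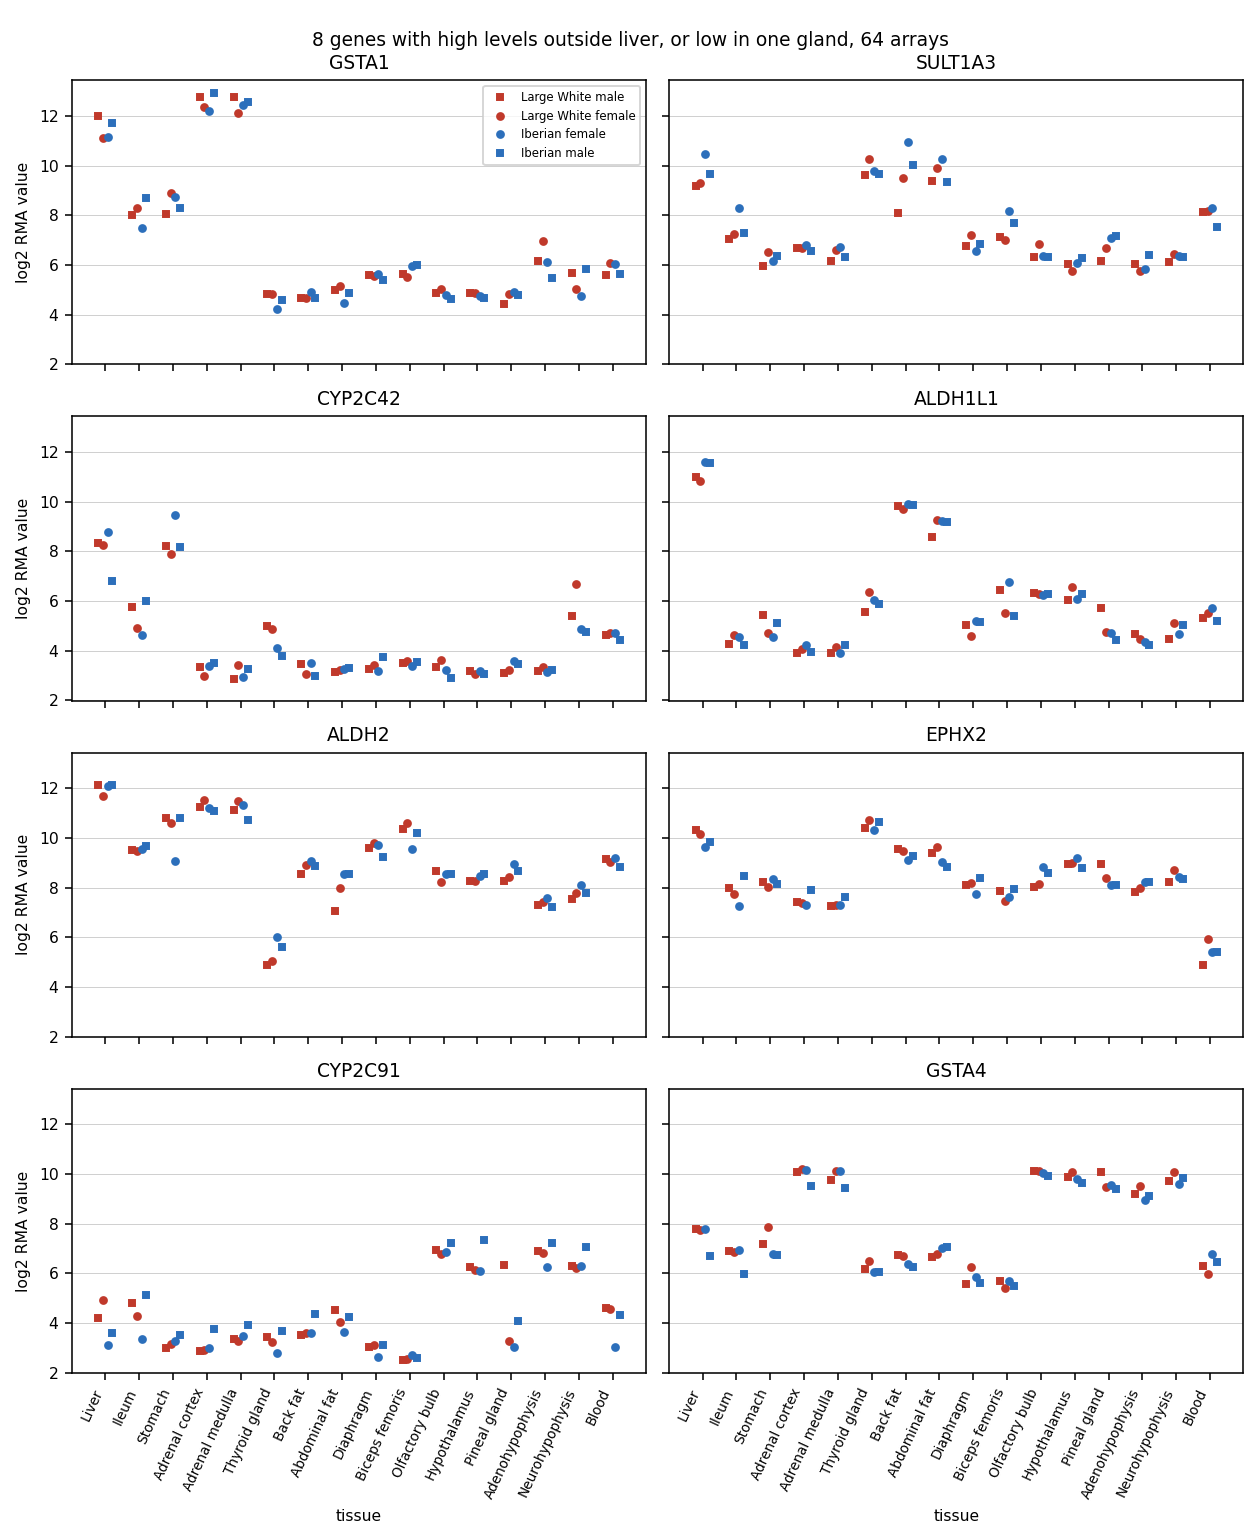
Log2 RMA values (vertical axes) of 8 genes in the 64 arrays, by tissue (horizontal axes) and pig (colour for breed, shape for sex). GSTA1 is highest in both parts of the adrenal gland, CYP2C42 in stomach and liver, ALDH1L1 in liver and fat, CYP2C91 and GSTA4 are high in brain tissues, EPHX2 is highest and ALDH2 lowest in thyroid gland.

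In fat, 11 probes (13.9%) were higher, beside 6.33% of all probes, and 6 (7.59%) lower, beside 4.73%. ALDH1L1 ranged from 8.59 to 9.92 over the 8 fat arrays, with a median of 5.15 in the other 56, and differed by 3.89 ± 0.12. FMO1 ranged from 9.16 to 10.39 and differed by 3.02 ± 0.22. SULT1A3 differed by 2.52 ± 0.15, with its lowest fat value (8.08) in the back fat of the Large White male and its highest (10.94) in that of the Iberian female. CYP2B22, whose family is inducible by phenobarbital in liver, ranged from 8.25 to 9.30 in fat, with 5.79 to 8.27 elsewhere, and differed by 2.09 ± 0.11.

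The hepatocyte list was raised in 2 of the 8 fat arrays, and 9 probes were higher in fat without the 3 arrays that carried it. All 4 genes just given kept their calls.

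Muscle had 3 probes (3.8%) higher, beside 6.79% of all probes, and 14 (17.7%) lower, beside 9.67%. CYP19A3, listed as an aromatase, gave 9.79, 10.08, 9.81 and 10.05 in diaphragm and 8.87, 9.12, 8.38 and 9.59 in biceps femoris, all above the other 56 arrays (median 7.53). The difference of 2.05 ± 0.09 belonged to this probe alone among the 8 for the gene: the other 7 were dim, and the lowest correlation between 2 probes of the gene was -0.30 over the 16 tissue means. FMO1 was higher by 1.69 ± 0.22 and GSTK1, a mitochondrial and peroxisomal glutathione transferase, by 1.27 ± 0.08.

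In the brain tissues (olfactory bulb, hypothalamus, pineal gland and both parts of the hypophysis) 3 probes (3.8%) were higher, beside 8.26% of all probes, and 20 (25.3%) lower, beside 5.46%. CYP2C91 ranged from 3.05 to 7.35 over the 20 arrays, with a median of 3.47 in the other 44, and differed by 2.62 ± 0.14. Its pineal values were 6.36 in the Large White male and 3.05 to 4.07 in the other 3 pigs. That array carried the glial list at 10.56, against 7.31 to 8.07 in the other 3 pineal arrays, and the list of pineal genes at 5.60, against 8.65 to 9.80, so it went against its label, and the 3 calls in brain tissues were the same count without it. GSTA4 ranged from 8.95 to 10.15 and differed by 2.56 ± 0.07 (adjusted p = 3e-35), and GSTM3 differed by 1.64 ± 0.11 although the adenohypophysis, with a mean of 5.35, stood apart from the other 4.

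In blood, 11 probes (13.9%) were higher, beside 15.1% of all probes, and 21 (26.6%) lower, beside 17.3%. In all, 32 (40.5%) were called, beside 32.3%. The 4 genes with the largest positive differences were CYP27B1 (1.33 ± 0.10), CYP19A1 (1.28 ± 0.11), CYP3A39 (1.15 ± 0.18) and CYP3A22 (1.06 ± 0.19). The dimmer CYP3A39 probe did not follow: it averaged 3.13 in blood, within the tissue means of 2.54 to 3.30 outside liver. CYP27B1 and CYP19A1 were dim in blood too, at 5.18 to 5.73 and 4.76 to 5.48, and the count of higher probes was 2 among probes whose highest tissue mean was above the series median. The negative differences were larger: ALDH1A1 gave 3.44, 3.87, 4.23 and 3.80 in blood and differed by -5.47 ± 0.28, EPHX1 by -3.72 ± 0.18 and ALDH7A1, a lysine-degrading aldehyde dehydrogenase, by -3.38 ± 0.17.

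Counted by gene over these 9 groups, 11 of the 52 genes were called higher in liver alone, 25 in liver and in at least 1 other group, 9 elsewhere but not in liver, and 7 in no group. These counts use the brightest probe of each gene. Those 7 were ADH5, CYP2C36, CYP2D25, CYP2J34, CYP24A1, CYP26A1 and CYP8B1, although the dimmer probe of CYP2D25 was called in liver and that of CYP2C36 in blood. The probes of CYP2C36, CYP26A1 and CYP8B1 were dim in every tissue (highest tissue means 3.61, 4.71 and 3.57), so the lack of a call says little about them.

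More members varied widely among the 4 pigs in liver than in any other tissue. Of the 79 probes, 6 (7.59%) had an SD above 1 log2 unit among the 4 livers, beside 0.765% of all probes, and the median SD was 0.27 for the members and 0.22 for all probes. The widest was CYP7A1, with an SD of 2.09. In each of the other 15 tissues at most 4 members had an SD above 1.

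Between breeds, 12 probes differed over all tissues: 3 (3.8%) were higher in Large White pigs, beside 6.15% of all probes, and 9 (11.4%) lower, beside 6.57%. The median difference was -0.04 for the members and 0.00 for all probes. The 16 arrays of a pig are not independent animals, and on the means of the 4 pigs no member passed in limma (12 at an unadjusted p under 0.05). The smallest exact permutation p for 2 pigs against 2 is 0.333.

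CYP3A46 had the largest difference, -1.03 ± 0.20 (adjusted p = 0.00013), and was lower in Large White pigs in all 16 tissues, with no overlap between the breeds in 12. In abdominal fat it gave 3.42 and 3.55 in the Large White male and female, against 8.58 and 5.39 in the Iberian female and male, and in back fat 3.89 and 3.57 in Large White pigs, against 8.65 and 5.10 in Iberian pigs. The high fat values of the Iberian female were not in the arrays that carried hepatocyte genes, where CYP3A46 stood at 3.55 and 3.57 in fat. In ileum it gave 7.33 and 6.34 in Large White pigs, against 8.05 and 8.83 in Iberian pigs. Without the Large White female, its difference was -0.93 (adjusted p = 0.052).

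SULT1E1 differed by -0.63 ± 0.17 (adjusted p = 0.011), and it was widest in the adrenal gland. In adrenal medulla it gave 3.98 and 3.39 in Large White pigs, against 7.99 and 7.48 in Iberian pigs, and in adrenal cortex 3.85 and 3.76 in Large White pigs, against 6.31 and 5.79 in Iberian pigs. In liver and ileum, where it was highest, the breeds were close or overlapped. Its call was lost without either male (difference -0.56) and without the Large White female (-0.69). With a pig left out, the breed difference over all tissues rests on the 1 pair of the same sex that is left. Leaving out either male, or either female, therefore gives the same difference.

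FMO1 (-0.50 ± 0.14) gave 5.05 and 5.03 in the adrenal medulla of Large White pigs, against 7.57 and 6.70 in Iberian pigs, and in neurohypophysis the higher Large White value was 6.56 and the lower Iberian value 8.05. That lower value came from the array of the Iberian male that carried hepatocyte genes (7.37), and the Iberian female, whose array did not, was higher. The difference of FMO1 over all tissues was -0.51 without the 3 arrays with hepatocyte genes (adjusted p = 0.02), and it did not pass when any pig was left out. CYP3A29 differed by -0.51 ± 0.13 and was lower in Large White pigs in 15 of 16 tissues. Smaller negative differences passed for ALDH1B1 (-0.37), ALDH3A2 (-0.33), SULT1A3 (-0.29), CYP2A19 (-0.28) and ALDH4A1 (-0.22). GSTA4 (0.21), GSTZ1 (0.15) and a dimmer probe of CYP27A1 (0.34) were higher in Large White pigs. The differences of SULT1A3, CYP2A19, ALDH4A1 and GSTZ1 did not pass when any pig was left out. Some dimmer probes did not follow the brighter ones. That of ALDH3A2 was lower in Large White pigs in 7 of 16 tissues (brighter probe 15), that of GSTA4 in 10 (brighter probe 3) and that of GSTZ1 in 8 (brighter probe 3). Between 3 and 8 members passed when a pig was left out, with 3 without the Iberian male, 4 without the Large White male and 5 without the Large White female.

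**Figure D4:**
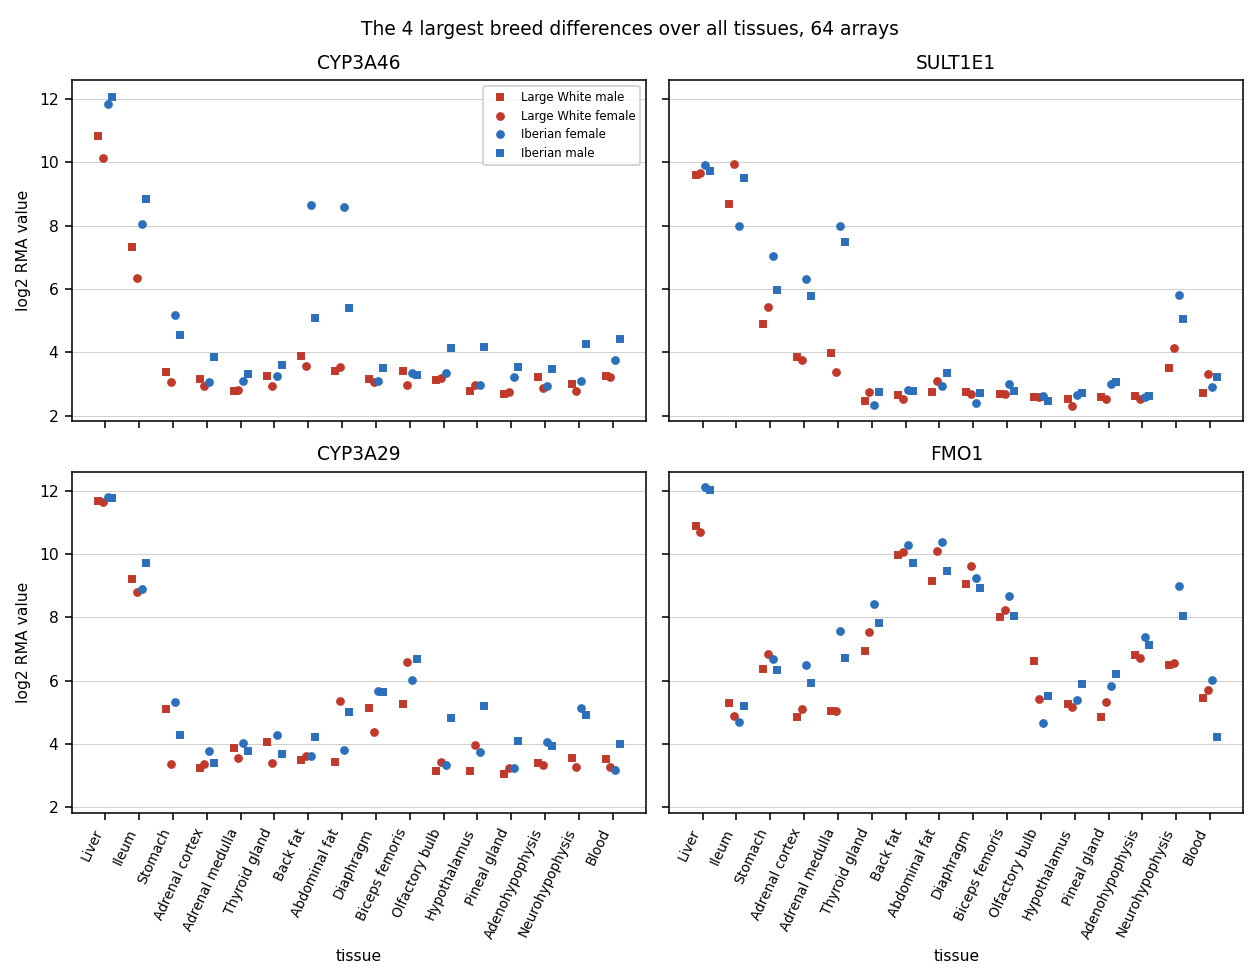
Log2 RMA values (vertical axes) of the 4 genes with the largest breed differences over all tissues, in the 64 arrays by tissue (horizontal axes) and pig (colour for breed, shape for sex). Within fat, CYP3A46 ranges from 3.42 to 3.89 in the Large White pigs and from 5.10 to 8.65 in the Iberian pigs, and SULT1E1 and FMO1 separate the breeds in the adrenal medulla.

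In liver itself, 7 probes (8.86%) differed between breeds, beside 2.67% of all probes: 1 (1.27%) was higher in Large White livers, beside 1.64% of all probes, and 6 (7.59%) lower, beside 1.03%. Of the 6, 4 belonged to CYP2 and CYP3 genes, and 3 of the 7 probes with several symbols, of the CYP4A and CYP4F families, were lower too. The SE and adjusted p of each breed or sex difference in liver rest on a spread pooled over all tissues. They assume that livers vary like the other tissues, so they do not give the precision of the liver values alone. CYP3A22 averaged 7.30 ± 0.28 in Large White livers and 9.15 ± 0.53 in Iberian livers (SD, n = 2 each), a difference of -1.85 ± 0.28 (adjusted p = 4.8e-05). CYP3A39 gave 11.83 and 11.56 in Large White livers, against 13.11 and 13.24, a difference of -1.48 ± 0.28, and its dimmer probe one of -1.56 ± 0.40.

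CYP2J34, of a family that makes fatty acid epoxides, gave 5.55 and 3.32 in Large White livers, against 6.97 and 6.42 in Iberian livers (-2.26 ± 0.37). The Large White livers lay far apart, whereas the SD of CYP2J34 among the pigs was at most 0.61 (ileum) outside liver. Its pooled SE therefore understates the spread of the livers. The dimmer probe of ALDH3A2, a fatty aldehyde dehydrogenase, gave 7.61 and 7.40, against 8.47 and 9.09 (-1.28 ± 0.32), and its brighter probe was not called. ALDH4A1, which breaks down proline, gave 8.88 and 8.74, against 9.38 and 9.60 (-0.68 ± 0.19). The breeds did not overlap in any of these probes, and 22 of the 79 probes were lower in Large White livers without overlap, beside 22.7% of all probes.

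ALDH18A1, which makes the precursor of proline, ran the other way: 8.22 and 8.10 in Large White livers, against 5.53 and 6.28 in Iberian livers, a difference of 2.25 ± 0.21, or 4.77-fold (adjusted p = 2.4e-09). Its breed differences in the other 15 tissues ranged from -0.98 to 0.45. CYP3A46, the member with the largest difference over all tissues, did not pass in liver alone (-1.46 ± 0.66, adjusted p = 0.29), nor did FMO1 (-1.26 ± 0.40, adjusted p = 0.081).

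CYP7A1 gave -1.65 ± 0.54 (adjusted p = 0.097). Tested against the other 15 tissues, the breed difference in liver was itself different for 5 probes (6.33%), beside 1.45% of all probes. It was higher for 1 (1.27%, beside 0.928%), ALDH18A1. For 4 (5.06%, beside 0.526%) it was lower: CYP2J34, CYP3A22, the brighter CYP3A39 probe and the dimmer ALDH3A2 probe.

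The hepatocyte list was slightly higher in both Large White livers (13.34 and 13.33) than in both Iberian livers (13.26 and 13.30). The red cell list of 3 genes was lower: 6.91 and 7.13 in Large White livers, against 7.37 and 8.80 in Iberian livers. The part of either list in the breed values was not tested. Between 4 and 9 members passed when a pig was left out, and 4 without the Large White female. A breed then had a single liver, which is assumed to vary like the other tissues, so a pass says little about stability. ALDH18A1 and CYP3A22 passed in each case, CYP3A39 was lost without either Large White pig (adjusted p = 0.056 without the male and 0.12 without the female), CYP2J34 without the Iberian female (adjusted p = 0.05) and ALDH4A1 whichever pig was left out. The difference in CYP2J34 was -3.44 without the Large White male and -1.08 without the Large White female.

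**Figure D5:**
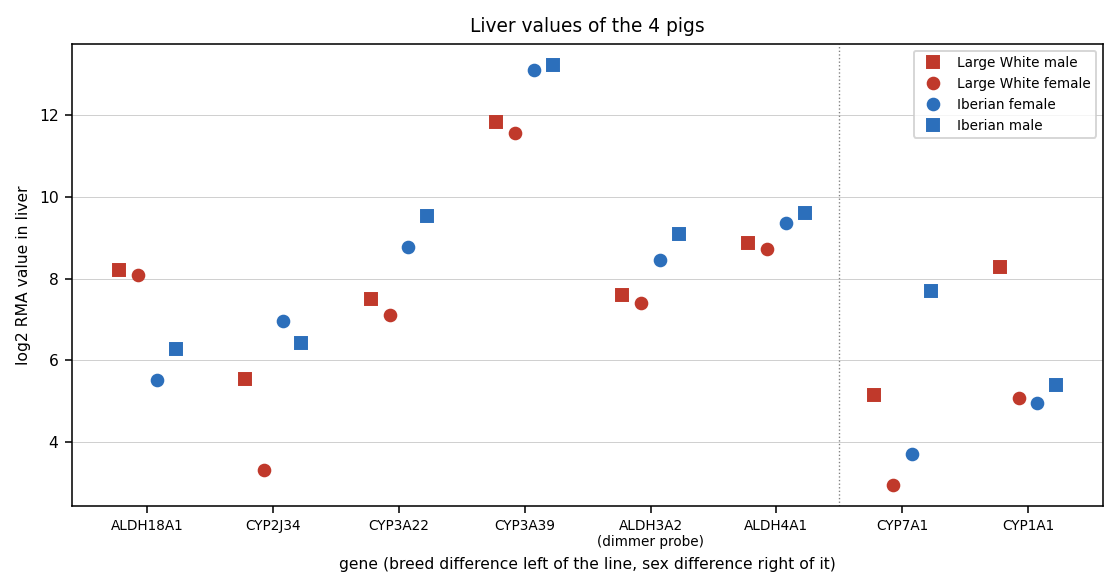
Log2 RMA values in liver (vertical axis) of the 4 pigs for the 6 genes with a breed difference and, right of the dotted line, the 2 genes with a sex difference (horizontal axis); colour marks breed and shape sex. ALDH18A1 is higher and the next 5 are lower in Large White livers, CYP7A1 is highest in the Iberian male and CYP1A1 in the Large White male.

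Between the sexes, 2 of the 79 probes (2.53%) differed over all tissues, beside 1.45% of all probes: 1 (1.27%) was higher in males, beside 0.673%, and 1 (1.27%) lower, beside 0.781%. CYP2C91 was higher in males by 0.49 ± 0.13 (adjusted p = 0.026), in 14 of 16 tissues. These include pineal gland, where the Large White male array, which went against its label, was the highest of the 4. The call was lost without either Iberian pig (0.23 each), the difference was 0.75 without either Large White pig, and the call was also lost without the 3 arrays that carried hepatocyte genes (adjusted p = 0.059). GSTM3 was lower in males by 0.44 on the log2 scale (SE 0.10, adjusted p = 0.0082), in 15 of 16 tissues. Without either Large White pig the difference in GSTM3 was -0.11 and did not pass, whereas it was -0.77 without either Iberian pig. SULT1A3 (-0.30 ± 0.10) and FMO1 (-0.24 ± 0.14) did not pass. On the means of the 4 pigs no member passed in limma, and 5 had an unadjusted p under 0.05.

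In liver, 2 members (2.53%) were higher in males, beside 0.1% of all probes, and none was lower, beside 0.0627%. CYP7A1, the rate-limiting enzyme of bile acid synthesis from cholesterol, gave 5.15 and 7.71 in the livers of the Large White and Iberian males, against 2.96 and 3.72 in those of the Large White and Iberian females. The sexes did not overlap, the females were near the level of the other tissues (2.53 to 3.27 on average), and the difference was 3.09 ± 0.35 (adjusted p = 4e-07). Without each pig in turn, the differences ranged from 1.87 (without the Iberian male) to 4.31 (without the Large White male) and had an adjusted p under 0.05, but 1 liver was then left in a group and the spread came from the other tissues, where CYP7A1 was uniformly low, whereas the SD of the 2 male livers was 1.81. The sex difference in liver differed from the sex difference in the other tissues (3.11, adjusted p = 2.7e-06). CYP7A1 was the only member to pass this last test, beside 0.0501% of all probes higher and 0.0125% lower.

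CYP1A1, the P450 induced by dioxin-like compounds through AHR, gave 8.28 and 5.40 in the male livers, against 5.08 and 4.96 in the female livers. The SD of the 2 male livers was 2.03, and the SE that follows is again pooled over all tissues. The difference of 1.82 ± 0.38 (adjusted p = 0.023) rested on the Large White male, and without that pig it was 0.33 (adjusted p = 0.96). It did not pass without the Large White female (adjusted p = 0.49) or the Iberian female (adjusted p = 0.29) either, and without the Iberian male it was 3.31. CYP2C42 (-0.94 ± 0.43) and GSTM3 (-0.90 ± 0.42) had the next largest differences in liver and did not pass. Over the 79 probes, 16 were higher and 6 lower in male livers without overlap, beside 13.7% and 14.7% of all probes.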

How the data were processed

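Total RNA of 16 tissues from 4 pigs was hybridised to 64 Affymetrix porcine arrays. The deposited values are log2 signals that the authors obtained with RMA in libaffy after GCOS (versions not given in the sources used here), and they were used as deposited. Reads or depth do not apply; 4 arrays per tissue limit the precision. RMA compresses differences of dim probes, and detection calls were not used. Symbols came from the platform annotation, and 77 of the 79 one-symbol members had the same symbol in RefSeq (not the 2 CYP3A39 probes). 188 control probe sets were left out.

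Models were fitted in limma 3.58.1 (R 4.3.3) over 23935 probes with tissue, breed and sex as terms, or with tissue by breed or tissue by sex cells for liver, and p-values were adjusted by Benjamini-Hochberg. Scripts were tested on simulated data. Genes were named by rank of difference in each comparison, by highest level and flattest row in each enzyme group, and by the largest liver differences in each partner list. A GSTA1 probe that the study lists between sexes carries no symbol in that annotation and was not a member. Members and lists were chosen with earlier results of these data known. Replicate numbers mark animals, so same-numbered arrays are paired: the mean correlation of their deviations was 0.19 (480 pairs), against -0.06 (1440 pairs) between animals. Deviations were taken from the mean of the 4 arrays of a tissue, so the second value largely follows from the first. No sequences were used.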

Additional observations from a re-analysis of the deposited data

Results flagged for a closer look

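In 3 cases a value lay apart from the other 3 pigs by Dixon's gap test, among 64 sets of 4 arrays searched (liver and the highest tissue of each named gene), where chance gives about 5%. CYP1A1 was 8.28 in the liver of the Large White male, against 4.96 to 5.40 in the other livers. GSTA4 was 6.70 in the liver of the Iberian male, against 7.74 to 7.80 in the others, and that liver also had the highest red cell list, 8.80. ALDH2 was 11.69 in the liver of the Large White female, against 12.08 to 12.15 in the others.

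For the brightest probe of 5 named genes, an effect in liver differed from the same effect in the other tissues by an interaction test in limma. For breed, the liver difference minus that elsewhere was 2.27 for ALDH18A1 (adjusted p = 9.9e-09), -2.13 for CYP2J34 (adjusted p = 0.0011), -1.81 for CYP3A22 (adjusted p = 0.00017) and -1.35 for CYP3A39 (adjusted p = 0.01). For sex it was 3.11 for CYP7A1 (adjusted p = 2.7e-06). With 2 pigs a side, differences between these individuals cannot be told apart from breed or sex.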

How the results depend on the processing

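Each count was recomputed under 11 to 16 alternatives. Those of members higher in liver (36 to 56), higher in liver than in ileum (33 to 56), above all other arrays in liver (21 to 33) and lower in blood (14 to 27) stayed within 1.5 times their values. With the animal as replicate block no call of a count changed (48 higher in liver, 12 between breeds, 7 between breeds in liver). For breed and sex, the consensus correlations within animals in those fits were -0.006, -0.0004 and -0.008. These fits were thus nearly the unblocked ones and could not show whether the breed and sex calls survive the pairing.

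Dropping the size limit gave 4 lower in liver, 32 lower in ileum, 20 higher and 20 lower in stomach, 13 higher and 45 lower in thyroid gland, 18 higher and 36 lower in adrenal gland, 33 lower in fat, 24 higher and 35 lower in muscle, 9 higher and 54 lower in brain tissues, 34 higher in blood and 2 lower in liver than in ileum. Testing against 1 log2 unit (treat) gave 7 higher and 3 lower in ileum, 4 higher and 0 lower in stomach, 5 lower in thyroid gland, 3 lower in adrenal gland, 7 higher and 3 lower in fat, 9 lower in muscle, 3 higher in blood and 0 lower in liver than in ileum. These 2 sets follow from the rule for calls.

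For the other changes the cause was not tested. The filter on low values gave 2 higher in blood and 1 between sexes in liver, where CYP7A1 was not tested because its highest tissue mean is under the series median. The natural logarithm gave 3 between breeds in liver (of which CYP3A22, CYP2J34 and ALDH18A1), 3 for the breed difference against other tissues and 1 between sexes in liver. The brightest probes gave 5 higher in blood, centred arrays 5 higher in muscle, the means of the 4 animals 0 between sexes and 0 between breeds over all tissues, and leaving out 3 arrays with hepatocyte genes, chosen after seeing the data, 1 between sexes. Leaving out a pig gave 0 to 1 lower in liver, 7 to 11 higher in blood, 1 to 2 between sexes and 3 to 8 between breeds over all tissues, 1 to 3 between sexes in liver, 4 to 9 between breeds in liver and 3 to 7 for the breed difference against other tissues. Of 1326 recomputed values of 93 named differences, 1244 kept their side of the threshold, 78 lost it and 4 gained it. None of those called changed sign, and of those not called, the breed difference of CYP7A1 in liver (counted as kept) was 0.25 without the Iberian male. With a pig left out, each breed or sex comparison in liver has 1 liver in a group, assumed to vary like the other tissues. Over all tissues, each then rests on 1 pair of pigs, of the same sex for breed and of the same breed for sex. Leaving out the adrenal medulla arrays changed neither adrenal count by over 1.5 times.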
